A study of Rattus norvegicus with 13 samples.

Results

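The genes described here encode the proteins of the cytosolic ribosome, measured in the brain of old male rats whose mothers had eaten a diet high in fructose or a control diet. They were chosen by symbol, from probe sets with a single gene symbol: Rpl and a number, Rplp0 to Rplp2, Rps and a number, or Rpsa. Pseudogene symbols and paralogues ending in l1 after the number, such as Rpl22l1, were left out, and each gene was represented by its probe set with the highest mean over 13 arrays. This gave 68 genes of the 14506 with such a probe set, 42 of the large and 26 of the small subunit. In a probe set, the signals of several short probes are combined into 1 value. The 68 genes were named by 249 probe sets of the 15310 with a single symbol. No expression value entered the choice of genes, but the mean signal chose the probe set of each.

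The maternal fructose group held 6 arrays and the maternal control group 7, each of the brain without cerebellum of a male Fischer F344 rat aged 15 months. The mothers received their diet through gestation, from day 1, and lactation. All offspring were weaned on day 20 and then ate the same chow in both groups, so the diets named here are those of the mothers. The labels give neither the litter nor the animal behind a sample, so p-values measure only the spread between these samples, and siblings may be among them. The tissue is a mixture of cell types, and in such bulk samples fewer cells of a type and less RNA per cell cannot be told apart.

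Each ribosome has a large subunit, which joins amino acids, and a small subunit, which reads the mRNA. Their proteins are made in matched amounts for assembly with ribosomal RNA in the nucleolus. Their mRNAs begin with a tract of pyrimidines, the TOP tract, through which the kinase mTOR and the protein Larp1 set how strongly they are translated, so the amount of mRNA and of protein can part ways. In neurons, ribosomes and mRNAs of some of these proteins are also found in dendrites and axons, where synapses need local protein synthesis.

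Features of the transcript start that the choice of genes did not use were more frequent among the members than among all genes. RefSeq start sequences of 57 of the 68 genes were available in build GRCr8. The first 5 bases from the annotated start were all C or T in 31 of the 57 (54.4%), and in 4.69% of the 27457 genes with an entry. The sequence CTTTCC lay within 40 bases on either side of the start, on the gene's own strand, in 19 of the 57 (33.3%) and in 3.63% of all genes. On the opposite strand it was found in 1 of the 57 (1.75%) and in 3.53% of all genes. CTTCCG, on either strand in the same window, was found in 18 members (31.6%) and 7.59% of all genes, and ATGGCG in 13 members (22.8%) and 5.03%. CTTTCC and CTTCCG, counted whether or not they overlap, stood together on the gene's strand in 4 members (7.02%) and in 0.146% of all genes. The stretches below show the starts of the 4 members with the highest and the 4 with the lowest diet difference, among those with a start entry (Rps25 and Rps9, also near the ends, have none). Each runs 5′ to 3′ on the gene's strand from 30 bases before the start, so that the start is base 31, and capitals mark CTTTCC.
Rps16 (chr1:92770628-92770677, plus strand): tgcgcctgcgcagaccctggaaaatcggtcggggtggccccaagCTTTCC
Rpl21 (chr12:13386134-13386183, minus strand): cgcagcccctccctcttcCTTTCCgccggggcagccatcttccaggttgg
Rpl5 (chr14:1995206-1995255, minus strand): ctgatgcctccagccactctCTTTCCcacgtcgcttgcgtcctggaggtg
Rplp2 (chr1:205975891-205975940, plus strand): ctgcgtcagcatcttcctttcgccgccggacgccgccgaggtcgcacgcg
Rpl37a (chr9:81748061-81748110, plus strand): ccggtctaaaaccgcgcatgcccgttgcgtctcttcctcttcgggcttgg
Rps19 (chr1:89608658-89608707, plus strand): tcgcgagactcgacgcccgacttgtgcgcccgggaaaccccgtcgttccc
Rpl36 (chr9:1533750-1533799, plus strand): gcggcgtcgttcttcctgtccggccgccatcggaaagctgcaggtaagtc
Rps27 (chr2:177964587-177964636, minus strand): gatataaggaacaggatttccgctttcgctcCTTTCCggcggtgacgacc
In Rpl37a and Rps27 the annotated start opens a run of C and T, and in the other 6 the first 5 bases are not all C or T. In Rpl5 and Rpl21 the CTTTCC lies before the annotated start. A match is a description of letters, not a site shown to be used. Members with CTTTCC in the window had a median log2 difference between the diet groups of 0.0207 (n = 19, 6 below 0), and those without it -0.0111 (n = 38, 24 below 0), as a description with no test.

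Values are log2 signals, so that a difference of 1 is a 2-fold change. Array medians over the 15633 probe sets tested ran from 7.99 to 8.07 and correlations between arrays from 0.9852 to 0.9976. Control replicates 1 and 2 had interquartile ranges of 2.19 and 2.15, against 2.26 to 2.5 elsewhere. The neuron markers Snap25, Syt1, Map2 and Rbfox3 averaged 13.35, 12.68, 12.15 and 11.13. The cerebellar markers Cbln3, Pcp2, Fat2 and Gabra6 averaged 7.72, 7.29, 6.92 and 5.64. Detection p-values were not used here, and the distance of dim signals to background is not known. Probe sets differ in how well they bind, so the mean signals of the members, from 6.25 for Rps27 to 13.23 for Rps29, are not an order of transcript amounts.

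No ribosomal protein gene passed the test of a difference between the maternal diets. In the limma fit 0 of 68 passed an adjusted p of 0.05, where 0% of the 15633 probe sets did, and the smallest adjusted p of a member was 0.9998. At an unadjusted p under 0.05 stood 1 member (1.47%), against 2.23% of all probe sets. That member was higher in the fructose group, as were 1.33% of all probe sets, and 0 members were at that level and lower, against 0.896%. The groups overlapped in all 68 genes. Among all probe sets, the fructose arrays lay entirely above the control arrays in 0.0192% and entirely below in 0.0192%.

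The differences, maternal fructose minus maternal control, ran from -0.115 to 0.131, that is from 0.924-fold to 1.09-fold. The 95% interval lay within 1.2-fold for 63 of the 68 genes, where this held for 84.6% of all probe sets, and within 1.5-fold for 68 of 68. The median difference was -0.00998 over the members and 0.00563 over all probe sets. The difference was below 0 in 40 members (58.8%), against 45.9% of all probe sets. The large subunit had a median of -0.0091 with 25 of 42 genes below 0, and the small subunit -0.0163 with 15 of 26 below 0, so both subunits had similar shares. These shares depend on the scaling: after renewed quantile normalization or cyclic loess 49 of the 68 (72.1%) were below 0, against 50.4% and 50.7% of all probe sets.

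**Figure D1:**
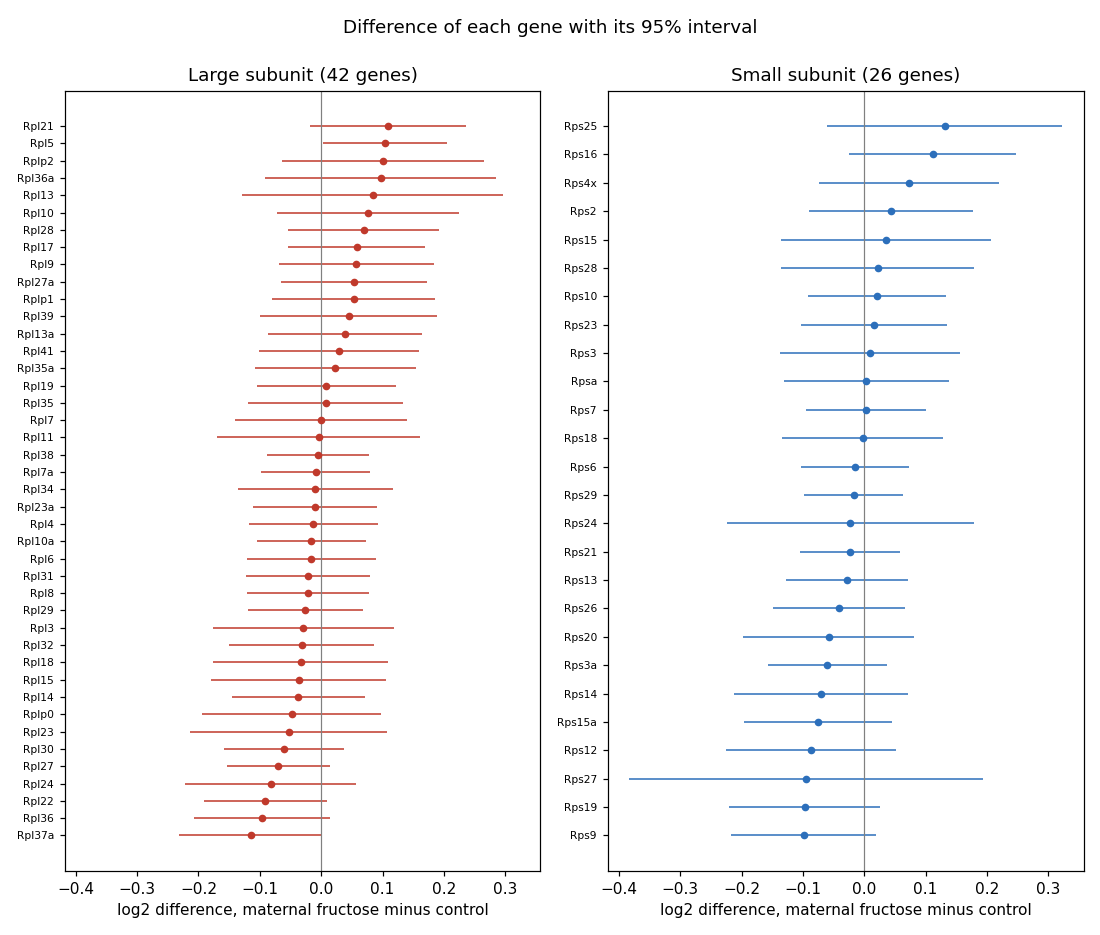
Log2 difference, maternal fructose minus maternal control, of each of the 42 large and 26 small subunit genes, with its 95% interval from limma. The interval of Rpl5 lies just above 0 and the other 67 hold 0; the points run from -0.115 (Rpl37a) to 0.131 (Rps25).

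Rpl5, which binds 5S ribosomal RNA and can hold back the p53 regulator Mdm2, had the smallest unadjusted p. Its log2 signal was 11.36, 11.44 and 11.51 in the fructose group (lowest, median and highest of 6) and 11.17, 11.34 and 11.46 in the control group (of 7). The fructose arrays lay in the upper part of the range of both groups, and the lowest control value was that of control replicate 1. The difference was 0.10 ± 0.05 (SE; 95% interval 0.003 to 0.205; limma unadjusted p = 0.0435, adjusted p = 0.9998), and 0.0451 to 0.127 over the other fits. Its partner in the 5S particle, Rpl11, was at 10.64 ± 0.06 (SD, n = 6) in fructose and 10.65 ± 0.19 (SD, n = 7) in control samples, a difference of -0.004 with an interval from -0.17 to 0.16.

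The stalk proteins, which call elongation factors to the ribosome, were at 11.57 ± 0.04 (SD, n = 6) in fructose and 11.47 ± 0.20 (SD, n = 7) in control samples for Rplp2. In control replicates 1 and 2 its signal was 11.14 and 11.24, and in all other arrays 11.50 or more. Rplp1 was at 11.49 ± 0.04 and 11.44 ± 0.15, and the stalk base Rplp0 at 10.54 ± 0.08 and 10.59 ± 0.16, in the fructose group (SD, n = 6) and the control group (SD, n = 7). The intervals of the 3 differences ran from -0.065 to 0.265 for Rplp2, -0.080 to 0.185 for Rplp1 and -0.194 to 0.097 for Rplp0. In all 3 the control arrays spread more widely than the fructose arrays.

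Around the catalytic centre and the exit tunnel, Rpl3 differed by -0.03 ± 0.07 (SE) and Rpl10, which joins last and helps to free the subunit for use, by 0.08 ± 0.07. The tunnel proteins Rpl4, Rpl17 and Rpl39 differed by -0.01, 0.06 and 0.04, with standard errors of 0.050, 0.052 and 0.068. The 95% interval held 0 for all 5, and the differences of Rpl10 and Rpl17 kept their sign over 23 other fits. Rpl21 was at 11.76, 11.87 and 11.93 in fructose arrays (lowest, median and highest) and 11.59, 11.72 and 11.94 in control arrays. Its difference was 0.11 ± 0.06 (SE; interval -0.02 to 0.24), with the highest of all its values in control replicate 8. Rpl28 stood within 12.33 to 12.38 in the fructose group and 12.09 to 12.47 in the control group.

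In the other direction, Rpl37a, a small protein with a zinc-binding motif, had the difference farthest below 0. Its signal was 11.46, 11.52 and 11.58 in fructose arrays (lowest, median and highest) and 11.50, 11.58 and 11.83 in control arrays. The groups overlapped, and the highest value was that of control replicate 1. The difference was -0.115 ± 0.055 (SE; interval -0.23 to 0.002; limma unadjusted p = 0.0536). Rpl22, whose paralogue Rpl22l1 can stand in for it in mice, was at 8.86, 8.89 and 9.05 in fructose arrays and 8.93, 8.99 and 9.13 in control arrays, a difference of -0.09 ± 0.05 (SE). Its 3 probe sets differed by -0.0912 to -0.0164. Rpl22l1, not a member here, was at 7.49 ± 0.12 (SD, n = 6) in fructose and 7.46 ± 0.21 (SD, n = 7) in control samples. Rpl36 and Rpl27, both of the large subunit, differed by -0.10 ± 0.05 and -0.07 ± 0.04 (SE).

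Of the small subunit, Rps25, which some viral and cellular mRNAs need to start translation without a cap, had the highest difference of all members. It was at 9.72, 9.87 and 9.96 in fructose arrays and 9.37, 9.72 and 10.02 in control arrays, so that the fructose values lay within the control range. The difference was 0.13 ± 0.09 (SE; interval -0.06 to 0.32), and its range over the other fits was 0.0314 to 0.183. Rps16 was at 10.85, 11.03 and 11.16 in fructose and 10.70, 10.89 and 11.04 in control arrays, a difference of 0.11 ± 0.06 (SE). Rps9 differed by -0.10 ± 0.06 and Rps19, the gene most often mutated in human Diamond-Blackfan anaemia, by -0.10 ± 0.06 (SE). The 3 probe sets of Rps9 differed by -0.099 to -0.0176 and correlated with each other by a median of 0.04. The Rps19 values were 10.10, 10.18 and 10.23 in fructose arrays and 10.17, 10.21 and 10.52 in control arrays, the highest in control replicate 8.

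Rps6, the target of S6 kinase in the mTOR pathway, was at 11.67 ± 0.04 (SD, n = 6) in fructose and 11.68 ± 0.07 (SD, n = 7) in control samples, with an interval from -0.10 to 0.07. Rps3, which lines the mRNA entry and also takes part in DNA repair, differed by 0.009 ± 0.07 (SE), Rpsa, first described as a laminin receptor, by 0.003 ± 0.06, and Rps2 by 0.04 ± 0.06. Rps14 and Rps26, both at the platform where mRNA leaves, differed by -0.07 ± 0.07 and -0.04 ± 0.05, and Rps4x by 0.07 ± 0.07 (SE). The signs of Rps3 and Rpsa turned in 8 and 9 of the 23 other fits. No value of Rpl12, Rps27a, Rpl3l, Rpl10l, Rpl39l or Rps27l was analysed here.

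The arrays differed from each other more than the groups did, and the members moved together. In control replicate 8, 66 of the 68 genes lay above their own mean over all arrays, by a median of 0.158, and 40 of the 68 had their highest value there. In control replicate 1, 10 of the 68 lay above their mean, the median deviation was -0.116, and 32 had their lowest value. The median deviation of the members was -0.033, -0.001 and 0.028 in the fructose group (lowest, median and highest) and -0.116, -0.001 and 0.158 in the control group. The fructose range thus lay within the control range. The mean of this deviation was 0 in both groups to 2 decimals, with an SD of 0.024 (n = 6) in fructose and 0.086 (n = 7) in control arrays.

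**Figure D2:**
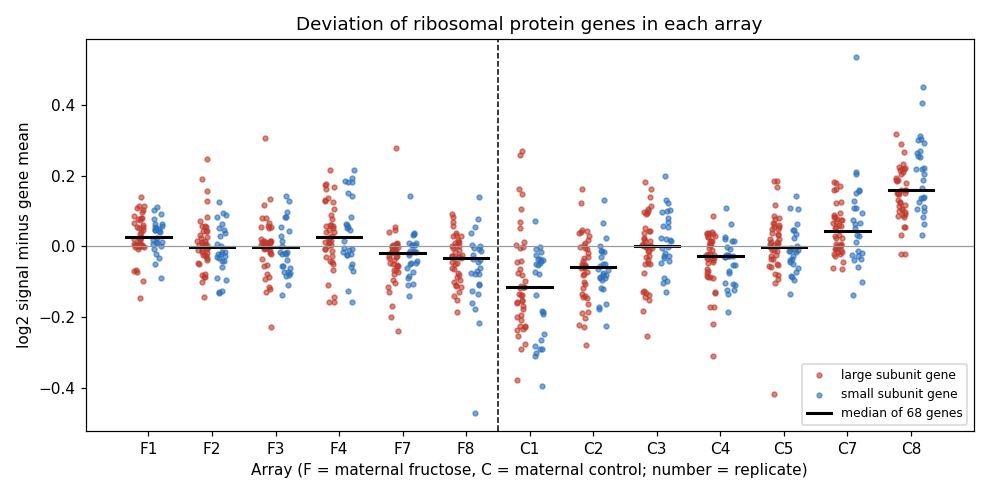
Each point is 1 gene in 1 array, as its log2 signal minus its mean over 13 arrays; bars are medians over the 68 genes. The bar of control replicate 8 (C8) stands at 0.158 and that of control replicate 1 (C1) at -0.116, while the 6 fructose bars lie between -0.033 and 0.028.

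Both subunits followed this order. In control replicate 8 the median deviation was 0.150 for the large and 0.212 for the small subunit, and in control replicate 1 -0.126 and -0.0751. The large minus small difference of these medians stayed between -0.021 and 0.025 in fructose arrays and between -0.061 and 0.025 in control arrays. Its SD in control arrays was 0.033, against 0.086 for the median deviation of all members. In fructose arrays it was 0.020 against 0.024, so there the 2 subunits parted about as much as the arrays did. The medians of the 2 subunits had opposite signs in fructose replicates 2 and 3 and control replicate 5. After removal of the group means, the correlation between pairs of members over the 13 arrays had a median of 0.45, and 87.6% of pairs were above 0. Within the large subunit the median was 0.41 and within the small subunit 0.49. Nonmember probe sets with a mean signal of 10 or more had a median of 0.14, and the 68 mitochondrial ribosomal protein genes 0.39. These correlations are descriptions over arrays that share their normalization. A single axis held 53.4% of the within-group variance of the members, 48.2% of that of the mitochondrial genes and 34.5% of that of the nonmember probe sets. Without control replicates 1 and 8 the median correlation of the members was 0.21 and the axis held 37.2%. These arrays were left out as the extremes of the members, so lower values follow in part from that choice. The other sets were not computed without them.

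Some members followed this axis closely and a few did not. The within-group correlation of a gene with the median of the other members was over 0.5 in 50 of the 68, and was 0.97 for Rps15, 0.96 for Rps24 and 0.93 for Rpl34. Rps24 had 8.86, 9.01 and 9.17 in the fructose group (lowest, median and highest) and 8.76, 8.99 and 9.47 in the control group, with the lowest value in control replicate 1 and the highest in control replicate 8. The correlation was 0 or less in 2 genes, Rpl36a (-0.18) and Rpl22 (-0.07), and 0.03 for Rpl37a. The 3 probe sets of Rpl22 correlated with each other by a median of 0.29, so its value describes the chosen probe set. Rpl22 and Rpl37a had their highest values in control replicate 1, at 9.13 and 11.83, where most members had their lowest.

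**Figure D3:**
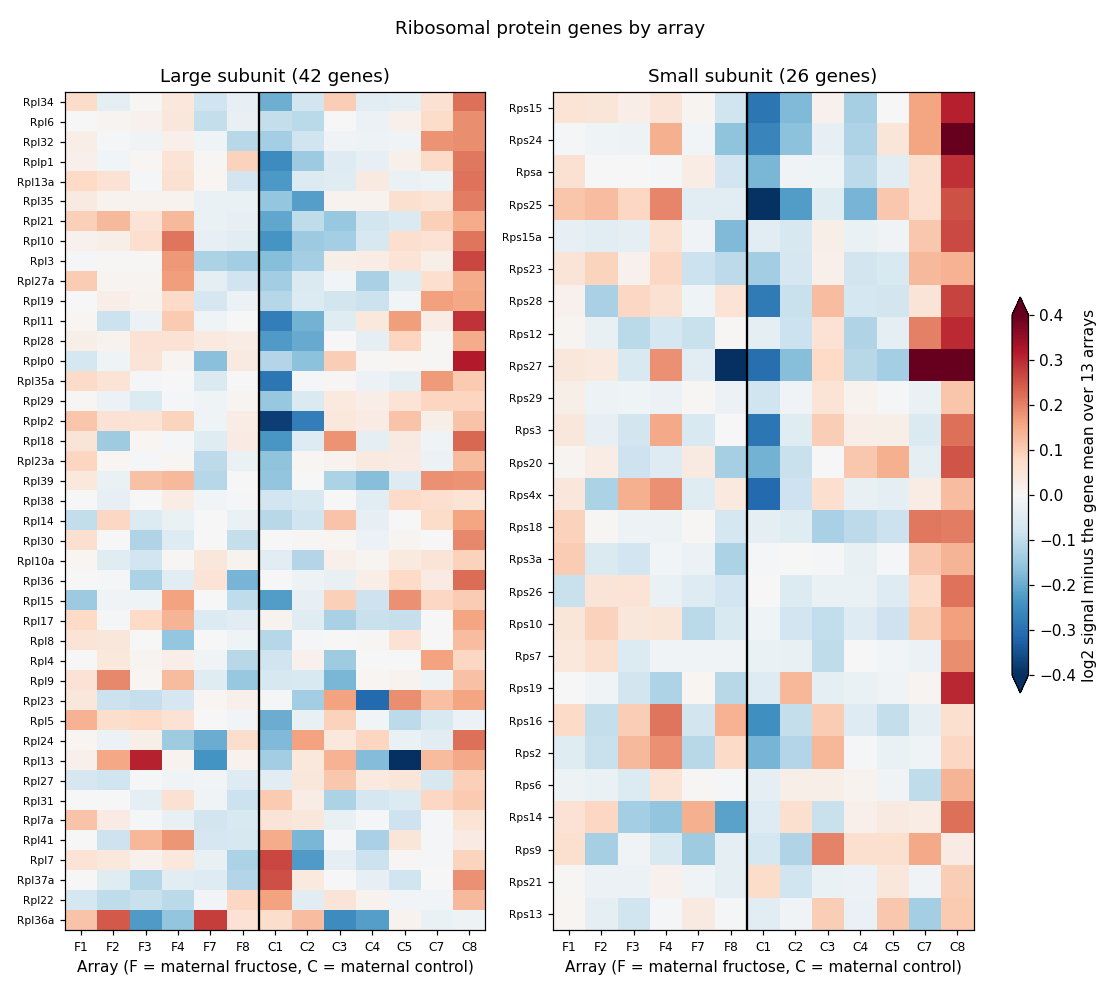
Colour gives the log2 signal of each gene minus its mean over the 13 arrays, with fructose arrays (F) left and control arrays (C) right of the line; values beyond ±0.4 take the end colours. Genes are sorted from high to low correlation with the other members, and the columns of C8 and C1 stand out in opposite colours in the upper rows.

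Some lists of cell type markers stood apart in control replicate 8, others did not. In control replicate 8 the median deviation of the 4 microglia markers was 0.29 (-0.25 to 0.11 in the other arrays), with 4 of 4 highest there. For the 4 astrocyte markers it was 0.345 (-0.26 to 0.11 in the others; 2 of 4 highest there) and for the 5 meningeal markers 0.73 (-0.63 to 0.61; 1 of 5). The 4 neuron markers stood at -0.13 (-0.04 to 0.09 in the others), with 3 of 4 lowest there. In control replicate 1 astrocyte, microglia and meningeal markers stood at -0.17, -0.12 and -0.31 and neuron markers at 0.001. The lowest astrocyte, microglia and meningeal deviations, -0.26, -0.25 and -0.63, were those of control replicate 2. The other 5 lists were not at either end in control replicate 8, with 0.221 for oligodendrocytes (-0.46 to 0.47 in the other arrays), 0.261 for blood (-0.39 to 0.52), 0.038 for endothelium (-0.16 to 0.11), -0.042 for cerebellum (-0.08 to 0.17) and -0.122 for choroid plexus (-0.18 to 0.21). Between the diets, 4 of 4 neuron markers were above 0, with a median difference of 0.058, and 0 passed the test. All 4 had a mean signal above 11, and of other probe sets at 11 or more 438 of 576 were above 0. The median difference was 0.082 for oligodendrocytes (2 of 2 above 0), -0.068 for cerebellum (3 of 4 below 0) and -0.053 for choroid plexus (3 of 3 below 0). In the remaining lists it lay between -0.01 (microglia) and 0.04 (meninges), and 0 markers of any list passed. The mean log2 level over a list ran, in fructose and then control arrays, from 8.57 to 8.67 and 8.46 to 8.90 for microglia, from 11.26 to 11.49 and 11.08 to 11.72 for astrocytes, from 7.59 to 8.92 and 7.44 to 8.69 for meninges, and from 12.30 to 12.42 and 12.22 to 12.34 for neurons. No marker can be at 0 on this scale, and the dimmest single value over the 9 lists was 4.51, of a blood marker. The part of these markers in the ribosomal protein values was not tested. The median deviation of nonmember probe sets at a signal of 10 or more stood at -0.0023 and -0.0054 in the arrays of control replicates 8 and 1. It was lowest in control replicate 2 (-0.0868, members -0.0589) and highest in control replicate 5 (0.0496, members -0.0009). The part of the signal level in the deviations of single arrays was not tested.

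The members' median difference turned above 0 without control replicate 8 and moved further below 0 without control replicate 1 or 2. Without control replicate 8 it was 0.0133, with 28 of 68 genes below 0 (41.2%, against 46.6% of all probe sets). Without control replicate 1 it was -0.0257, with 48 below 0. When control replicates 1 and 2, whose values were least spread, were both left out, it was -0.0439, with 51 of 68 below 0, against 48.6% of all probe sets. In each of these fits 0 members passed an adjusted p of 0.05. The spread within a group was smaller in fructose than in control arrays for 58 of the 68 members (85.3%), with a median SD of 0.069 in the fructose and 0.119 in the control group. The same held for 70.8% of all probe sets, with median SDs of 0.090 and 0.124. Without control replicates 1 and 8, the extremes of the members, the median SD in the control group was 0.082 for the members and 0.114 for all probe sets.

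The difference between the diets varied with the signal level of the members. Of the 15 genes with a mean signal below 10, 13 had a difference below 0, with a median of -0.0532. Of the 25 between 10 and 11, 17 were below 0 (median -0.00943), and of the 28 at 11 or more, 10 were (median 0.0212). Among other probe sets the medians in the same ranges were 0.00246, 0.0244 and 0.024, with 48.2%, 30.1% and 24.0% below 0. Across the 68 genes the difference and the mean signal had a Spearman correlation of 0.45, given as a description across genes that share the same arrays, and it was 0.42 over the large and 0.53 over the small subunit. The bounds of these ranges were chosen with the data in view.

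Over all other probe sets the same correlation was 0.23, and it was -0.16 without control replicates 1 and 2, whereas over the members it was 0.45 without that pair. In these 11 arrays the member medians in the 3 level ranges were -0.092, -0.0573 and -0.0185, from dim to bright. Without control replicate 8 they were -0.0308, 0.0136 and 0.0422, after cyclic loess -0.0643, -0.0301 and -0.00198, and the correlation over the members was 0.40 in both. The order from dim to bright was thus the same in these settings, while the level of the whole set moved. Below a signal of 10, Rps25 at 0.13 and Rpsa at 0.003 were the 2 genes with a difference above 0. The dim members included Rps27 (-0.09 ± 0.14, SE), Rpl15 (-0.04), Rpl24 (-0.08) and Rpl23 (-0.05). The widest scatter of any member was that of Rps27, with 5.78, 6.25 and 6.44 in fructose and 5.95, 6.14 and 6.79 in control arrays (lowest, median and highest). The within-group SD was 0.276 for Rps27, followed by 0.199 for Rpl13 and 0.187 for Rps24. It was smallest for Rps29, Rps21 and Rpl38, at 0.047, 0.049 and 0.050, and their differences were -0.02, -0.02 and -0.005.

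Many members were named by several probe sets. Processed copies of ribosomal protein genes are common in mammalian genomes, and whether these probe sets read such copies was not tested, so values of these genes are uncertain to that extent. Only 15 genes had a single probe set and 53 had several, with 21 for Rpl21, 13 for Rpl7a and 10 for Rpl36. The 249 probe sets held 241 distinct rows of values, so some shared all of theirs. In 39 of the 53 genes the probe sets agreed in the sign of the difference. The 21 probe sets of Rpl21 differed by 0.0509 to 0.149, the 10 of Rpl36 by -0.118 to -0.0833 and the 9 of Rps2 by 0.0261 to 0.063. Within-group correlations between probe sets of a gene had a median of 0.92 over the 53 genes. They were over 0.8 in 38 of these genes, and lower in others, such as Rpl22 (0.29) and Rps9 (0.04). The probe sets of a gene do not measure it independently, as they may share probes or target copies of 1 sequence.

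**Figure D4:**
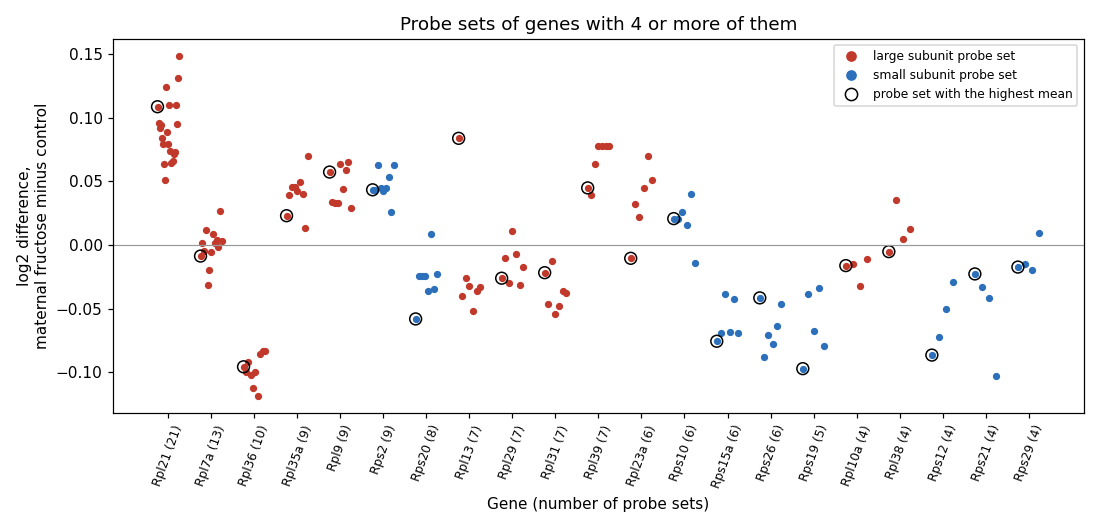
Log2 difference, maternal fructose minus maternal control, of every probe set of the genes with 4 or more; a circle marks the probe set with the highest mean, which represents the gene. The 21 probe sets of Rpl21 all lie above 0 and the 10 of Rpl36 all below, while the chosen probe set of Rpl13 (0.0838) lies apart from its other 6.

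In 14 genes the signs were mixed. For Rpl13 the brightest probe set differed by 0.0838 and the other 6 by -0.052 to -0.0256. Rps3 had a probe set at a mean of 10.57 with 0.00877 and one at 6.36 with -0.129 (limma unadjusted p = 0.016), and Rpl24 had -0.0826 and 0.0837. For Rpl5 the 3 probe sets ran from -0.00133 to 0.104 and correlated with each other by a median of 0.33, so its small unadjusted p belongs to 1 probe set. Probe sets of Rpl4 at means of 10.93 and 7.07 had a correlation of -0.50. Over all 249 probe sets 125 were below 0, with a median difference of -0.000805. With the mean of all probe sets of a gene in place of the brightest, 38 of 68 genes were below 0 and the median was -0.0076.

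Other genes of protein synthesis were set beside the members. Of 14 measured translation factors and other products of TOP mRNAs, 0 passed the test, 4 were below 0 and the median difference was 0.015. The elongation factor gene Eef1a1 was at 12.90 ± 0.11 (SD, n = 6) in fructose and 12.90 ± 0.10 (SD, n = 7) in control samples, and Tpt1, with the smallest unadjusted p of the list, differed by 0.08 ± 0.05 (SE). Like the ribosomal proteins they had their highest median deviation in control replicate 8 (0.135, with 8 of 14 genes highest there). Their lowest was in control replicate 2 (-0.097). In control replicate 1, the lowest array of the ribosomal proteins, they stood at -0.088, with 4 of 14 genes lowest there. Of 20 measured genes of ribosome production 0 passed and 10 were below 0, with Bop1, an assembly factor of the large subunit, at -0.08 ± 0.04 (SE). Their median deviation in control replicate 8 was 0.014. Of 11 measured genes that control translation of TOP mRNAs 0 passed and 1 was below 0. Eif4ebp2, the mTOR target that restrains cap-dependent translation in the brain, was at 8.96 ± 0.05 (SD, n = 6) in fructose and 8.81 ± 0.13 (SD, n = 7) in control samples. Its difference was 0.15 ± 0.06 (SE; limma unadjusted p = 0.0193, adjusted p = 0.9998). The 68 mitochondrial ribosomal protein genes, which serve the separate ribosome of mitochondria, had a median difference of -0.004 with 35 below 0 and 0 past the threshold. Mrpl54 differed by 0.12 ± 0.07 and Mrpl44 by -0.09 ± 0.05 (SE). Their median deviation was -0.10 in control replicate 1, the lowest of all arrays, and 0.04 in control replicate 8.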

How the data were processed

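RNA (100 ng) of 13 brain samples was labelled and hybridised to Affymetrix rat gene arrays, 1 array per sample. The deposited values are log2 signals, and the tools listed per the submitters' processing notes are RMA, which corrects background and normalizes between arrays, and R 3.0.1. Genes came from the platform annotation: of 29214 probe sets, 15310 had 1 symbol, 323 several and 13581 none.

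A linear model (limma 3.58.1, R 4.3.3) was fitted to the 15633 probe sets that name a gene, dim ones included, with Benjamini-Hochberg adjustment over all of them. Differences are fructose minus control. The fit was tested on simulated data first. Deviations are a gene's log2 signal minus its mean over 13 arrays. Lists are summarised by the brightest probe set of a gene. The number of arrays limits the precision.

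The text names the 6 members in each direction with the smallest unadjusted p, members of set roles and those with the widest and narrowest spread. It also names those with a single far sample, some of those with mixed probe sets, and up to 2 genes of each comparison list. The members and lists were chosen with earlier results of these data known. A few further genes were named after their values were seen (Rpl7, Rpl34, Rpl36a, Rpl15, Rpl23, Rpl24, Eef1a1). Alternatives were other normalizations, array weights, another variance prior, filters, a replicate block, averaged probe sets, and arrays left out. Chosen after seeing the data were co-movement and spread without control replicates 1 and 8, and the level ranges under other settings.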

Additional observations from a re-analysis of the deposited data

Results flagged for a closer look

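In 142 groups of 6 or 7 arrays (the 68 genes and 3 medians over members, in both diet groups), 7 held a sample far from the others by Dixon's criterion. Chance flags about 1 in 20 groups, that is 7.1 here. In 3 cases the far sample was control replicate 8: Rpl30 was at 10.73 (10.52 to 10.55 in the other control arrays), Rpl36 at 11.50 (11.25 to 11.36) and Rps7 at 10.98 (10.69 to 10.79). Fructose replicate 8 was far below the other fructose arrays for Rpl32, at 12.09 (12.18 to 12.22), Rps15, at 10.70 (10.79 to 10.83), and Rps27, at 5.78 (6.19 to 6.44). Rpl8 was at 9.57 in fructose replicate 4, with 9.71 to 9.78 in the other fructose arrays.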

How the results depend on the processing

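In the 23 other fits 0 members passed an adjusted p of 0.05, with a smallest adjusted p of a member of 0.9525 (without control replicates 1 and 2), and 0 probe sets passed in the fits by probe set. The median difference of the members ranged from -0.0439 (without control replicates 1 and 2) to 0.0133 (without control replicate 8), the one fit in which it was above 0. It was -0.0342 after renewed quantile normalization, -0.0324 after cyclic loess and -0.00622 with array weights. Members at an unadjusted p under 0.05 numbered 0 to 7, the most with array weights, where 4.86% of all probe sets stood there. Of 38 named members, which were not picked for mixed probe sets, 20 kept the sign of their difference in every fit and 18 turned at least once. With the replicate number as a block, which leaves control replicate 5 without weight, the median was -0.012 with 39 of 68 below 0, and 0 passed. Same-numbered arrays had correlations of -0.34 to 0.19 between their deviations. Such correlations cannot decide whether samples were paired, and the labels name no pairing. Without the 30% dimmest probe sets Rps27 dropped out. Without depth or detection values, how far background weighs on dim members cannot be given.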

Other observations

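Members on the X chromosome were looked at after the values were seen. The RefSeq table places 4 of the 57 members with an entry there: Rpl10, Rpl36a, Rpl39 and Rps4x. Their differences were 0.08, 0.10, 0.04 and 0.07, so 4 of 4 were above 0, as were 23 of the other 53. Over all probe sets they ran from 0.0034 to 0.076 for Rpl10, 0.0824 to 0.0969 for Rpl36a, 0.0389 to 0.0777 for Rpl39 and 0.0155 to 0.0731 for Rps4x. Rpl39 fell to -0.000187 in 1 of the 23 other fits. The share above 0 among other genes of the X chromosome was not counted. The mean signal of all 4 was above 10, and 0 of them passed the test. Of nonmember probe sets at a signal of 10 or more, 1296 of 1804 were above 0 too. Among members, these 4 included, 8 of 25 between 10 and 11 were above 0, and 18 of 28 at 11 or more.

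Rpl7, a large subunit protein, had both its highest and its lowest value in control arrays, at 10.60 in control replicate 1 and 10.10 in control replicate 2. Its values in the fructose arrays lay between.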
